A study of Mus musculus with 8 samples.

Results

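The genes described here are 32 genes of glutamate signaling, chosen by name: 3 vesicular glutamate transporters, 4 transporters of the plasma membrane with glutamine synthetase, 15 subunits of the AMPA, NMDA and kainate receptors, 6 metabotropic receptors, and *Grid1*, *Dlg4* and *Cacng2*. They were read by 49 of the 55681 probes of the array. Each of 8 Agilent arrays held RNA of the hypothalamus (HT) of 1 male C3H/HeN mouse, and 4 mice belonged to the maternal separation (MS) group and 4 to the control group. Pups of the MS group were separated from their dam for part of each day from PND 2 to 14. Their dam received chronic unpredictable stress during these daily sessions, and control pups stayed with an undisturbed dam. All pups were weaned on PND 21 and housed by sex, strain and condition. The study used mice after operant tasks for food and deprived them of food before the brain was taken, steps that both groups went through. The amount of food earned in the tasks can differ between groups and was not analysed here. The study tested the mice as adults, and the sources used here do not give their exact age when the brain was taken. The labels number the control mice 8.2, 8.4, 8.5 and 6.2 and the MS mice 7.1, 7.2, 7.6 and 5.3. The first part of a mouse number is not explained. If it is a litter or a cage, several mice of a group shared one and no litter or cage held both groups, and p-values then measure the spread between these mice only.

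Glutamate is the main excitatory transmitter of the brain. Neurons load it into vesicles through VGLUT proteins, release it onto ionotropic receptors, which are channels built from 4 subunits, and onto metabotropic receptors, which act through G proteins, and astrocytes then clear it and turn it into glutamine. In the hypothalamus, glutamate neurons and receptors take part in the control of feeding and of hormone release. The comparison of MS with control mice asks whether early adversity left a mark on the RNA of this machinery in the adult HT.

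All 8 arrays lay on 1 slide in 2 rows, each with 2 control and 2 MS mice. The 75th percentile of the intensity ranged from 499.2 to 901.6, with the lowest value on the array of MS 7.6, and 61.2% to 71.1% of probes were well above background. Levels are given as log2 intensity relative to the 75th percentile of the array, and differences are MS minus control on this log2 scale. Probes differ in how brightly they report the same amount of RNA, so the subunits were not ranked by signal. The labelled tissue was checked with 14 hypothalamic markers. All 14 were measured. Among them, *Oxt* (oxytocin) had mean levels of 6.61 in control and 6.75 in MS mice, and *Sim1* had -3.96 and -3.83. *Otp*, at -5.49 and -5.69, was well above background on 4 arrays only. None of the 14 passed limma's test, and 3 of them had an unadjusted p under 0.05, against 2.66% of all genes. These were *Hcrt* (orexin), with a difference of -1.447, *Pmch* (melanin-concentrating hormone), with -0.462, and *Hdc* (histidine decarboxylase), with 0.214. The part of these neurons in the values of the glutamate genes was not tested. The mean level of 4 pituitary genes was 5.59 in control 6.2 and 1.63 to 2.82 in the other mice. In whole tissue, fewer cells of a type and less RNA per cell cannot be told apart.

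A few probes are shown because they tell which stretch of RNA a value reports. Each is a 60-base probe of the array with a reading frame free of stop codons on its own strand, and the genes were also read by at least 1 more probe outside this stretch. The *Slc1a2* probe lies at chr2:102617752-102617811 on the plus strand, the *Gria4* probe at chr9:4502385-4502444 on the minus strand and the *Slc17a8* probe at chr10:89046159-89046218 on the minus strand of mm9. No base is set in capitals, since the whole probe is the measured part.
Slc1a2: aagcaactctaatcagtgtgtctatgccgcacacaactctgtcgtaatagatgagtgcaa
Gria4: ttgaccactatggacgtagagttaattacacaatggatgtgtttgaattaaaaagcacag
Slc17a8: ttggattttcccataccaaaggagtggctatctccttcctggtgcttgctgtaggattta

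Glutamate genes differed little between MS and control mice. Of the 32 genes, 31 were tested, since at least 4 arrays showed a probe of theirs well above background. No gene passed limma's test at an adjusted p under 0.05 (0 of 47 member probes, and 0% of the 37314 probes tested). The smallest adjusted p was 0.989. At an unadjusted p under 0.05, there was 1 of the 47 member probes, a second probe of *Grik3*, against 3.4% of all probes. The 31 genes, each given by its probe of highest signal, had none at this threshold, against 460 of 17314 genes (2.66%). The 4 values of one group lay wholly apart from the 4 of the other for 2 of the 47 probes, one of *Gria4* and one of *Grik3*, against 2.03% of all probes.

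The differences of the 31 genes ranged from -0.119 for *Cacng2* to 0.22 for *Grm2*. Their median was -0.032, and that of all 17314 genes was 0.007. Values were above 0 for 11 of the 31 genes, against 53.6% of all genes. *Slc1a1*, *Gria1* and *Grin2c* also came above 0 when arrays were scaled to their median, and *Gria1* with normexp background correction. *Grik3* came below 0 with normexp or quantile normalization, and *Grm3* with normexp. In the deposited log2 table, *Grin2c* came above 0 and *Slc1a3* and *Grik3* below 0. The median size of the difference, whatever its direction, was 0.07 for the 31 genes and 0.056 for all genes, and the median SD within a group was 0.096 and 0.115. By the probe of highest signal, the 95% confidence interval lay within a 1.5-fold change in either direction for 31 of 31 genes. For all genes it did so for 15398 of 17314. Other tested probes of *Grik3* (-1.118 to -0.046), *Slc17a8* (-0.406 to 0.849) and *Grik1* (-0.626 to 0.187) had intervals that reached beyond a 1.5-fold change. Intervals within that limit leave room for smaller changes and do not show that a gene was equal in both groups.

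**Figure D1:**
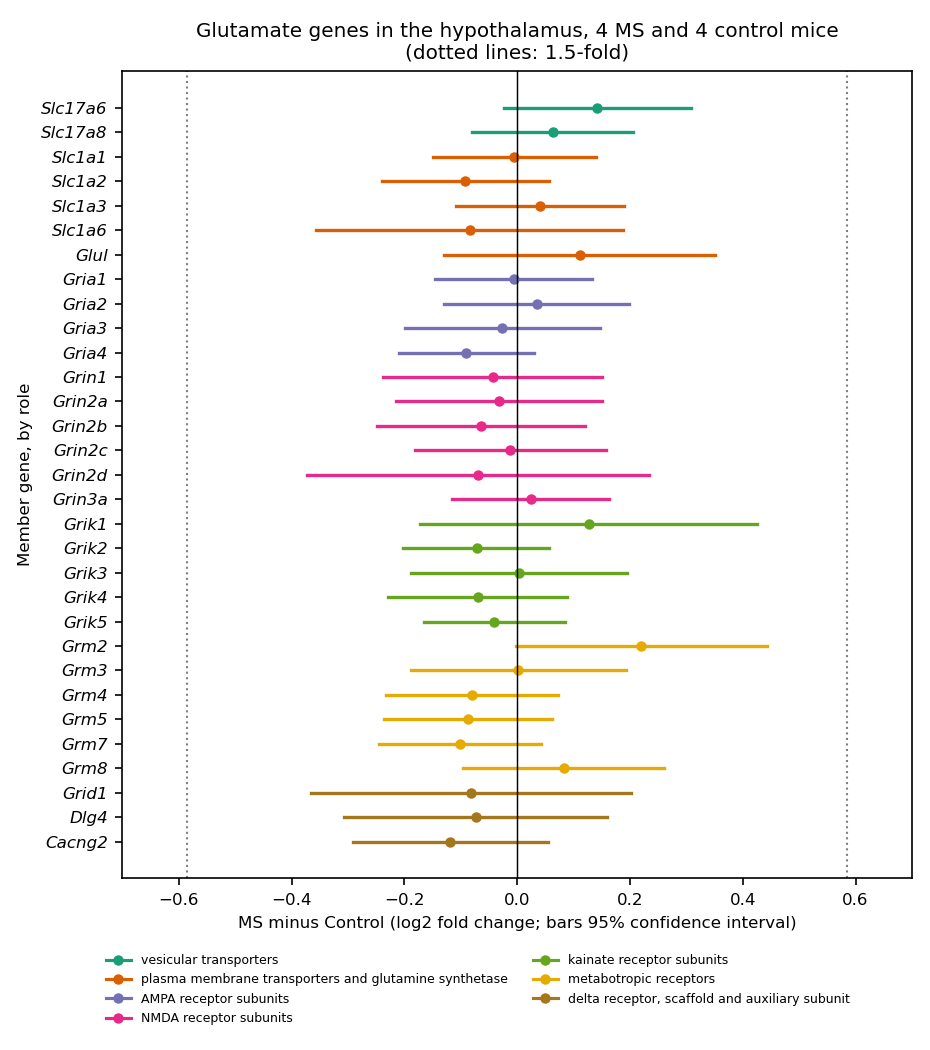
Difference between MS and control mice for the 31 tested glutamate genes, by role, as log2 fold change on the x axis. Points are limma estimates for the probe of highest signal of each gene, from 4 and 4 mice. Bars are 95% confidence intervals, and the dotted lines mark 1.5-fold. Every bar crosses 0 and ends inside the dotted lines, and *Grm2* (0.22) and *Slc17a6* (0.142) lie farthest to the right.

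Vesicular transporters load glutamate into synaptic vesicles. *Slc17a6* (VGLUT2), the form of most subcortical glutamate neurons, was well above background on all 8 arrays, and its probe lies at chr7:58926067-58926126 (mm9, plus strand). Its level was 4.12, 3.99, 4.08 and 4.13 in control mice 8.2, 8.4, 8.5 and 6.2, and 4.09, 4.36, 4.21 and 4.23 in MS mice 7.1, 7.2, 7.6 and 5.3. Of the MS mice, 3 were above every control mouse, and MS 7.1 lay among them. The difference was 0.142 ± 0.072 (SE, n = 4 and 4), with a 95% confidence interval of -0.023 to 0.308 (limma, adjusted p = 0.989). It was 0.242 in slide row 1 and 0.042 in slide row 2. *Slc17a8* (VGLUT3), found in neurons that also release other transmitters, had a difference of 0.063, and a dimmer second probe gave 0.221 with an interval of -0.406 to 0.849.

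*Slc17a7* (VGLUT1), the form of cortical and hippocampal neurons, has no fold change. Its only probe was not well above background on any of the 8 arrays. A list of 8 genes of cortex, hippocampus and amygdala had a mean level of -3.41 to -2.72 in control and -2.92 to -2.74 in MS mice. Its genes differed widely, with *Neurod6* at -5.43 in control and -4.46 in MS mice and *Cux2* at 1.21 and 1.31. Since probes differ in brightness, these levels do not tell how much of such tissue was present.

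Transporters of the plasma membrane end the signal. *Slc1a2* (GLT-1), the main glutamate transporter of astrocytes, had levels of 2.46, 2.55, 2.60 and 2.42 in control mice 8.2, 8.4, 8.5 and 6.2, and of 2.48, 2.42, 2.45 and 2.31 in MS mice 7.1, 7.2, 7.6 and 5.3. MS 5.3 was the lowest of all mice and the groups overlapped, with a difference of -0.092 ± 0.064 (SE). The other 2 probes of *Slc1a2* gave 0.024 and -0.067, so its probes differed in sign. *Slc1a3* (GLAST), the second astrocyte transporter, was 4.32, 4.20, 4.38 and 4.36 in control mice and 4.42, 4.33, 4.40 and 4.26 in MS mice, in the same order of mice. Both groups covered nearly the same range, and the difference was 0.04 ± 0.065 (SE).

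*Glul* encodes glutamine synthetase, which makes glutamine from glutamate in astrocytes. Its level was 5.51, 5.50, 5.09 and 5.47 in control mice and 5.40, 5.55, 5.58 and 5.48 in MS mice. Control 8.5 stood apart from the other 7 mice. The difference of 0.111 ± 0.104 (SE) became 0.008 without control 8.5, and it was 0.007 in slide row 1 and 0.215 in slide row 2, the row of control 8.5. The neuronal transporters *Slc1a1* (EAAC1) and *Slc1a6* (EAAT4) had differences of -0.005 and -0.084. For *Slc1a6*, MS 5.3 gave the lowest value, 3.47 against 3.73 to 3.98 in the other mice, and without it the difference was 0.028.

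The astrocyte genes were also read as a difference within each array, from which a constant shift of the array cancels but a background correction or a change of quantiles does not. *Slc1a2* minus *Slc1a3* was -1.85, -1.65, -1.78 and -1.93 in control mice 8.2, 8.4, 8.5 and 6.2, and -1.94, -1.91, -1.94 and -1.95 in MS mice 7.1, 7.2, 7.6 and 5.3. Control mice spread widely (SD 0.12) and MS mice closely (SD 0.017), and control 6.2 lay among the MS mice. The MS mean was lower by 0.132, with p = 0.0571 in the exact two-sided permutation test and 0.1714 after Benjamini-Hochberg adjustment over 3 differences. This test could reach 0.0286 at the smallest. The difference was -0.177 in slide row 1 and -0.087 in slide row 2. It came to -0.071 in the deposited log2 table, -0.085 with the mean of all tested probes of a gene, -0.107 with normexp background correction, -0.123 with quantile normalization and -0.081 without control 8.4.

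A list of 9 astrocyte markers, none of them a glutamate gene of this set, had a mean level of 3.85 to 3.96 in control and 3.95 to 4.08 in MS mice. All 9 markers were above 0 in the comparison, against 53.6% of all genes, with a median of 0.082. At an unadjusted p of limma under 0.05 there was 1 of the 9 (*Aqp4*, 0.25), against 2.66% of all genes, and none passed the test. Across the 8 mice, Pearson's r with the list was -0.368 for *Slc1a2*, 0.329 for *Slc1a3*, 0.483 for *Glul* and -0.274 for *Grm3*, with Spearman's rho of -0.524, 0.429, 0.429 and -0.048. The exact permutation p-values lay between 0.2435 and 0.5109 for r and between 0.1966 and 0.9349 for rho, and no adjusted value over the 5 relations was below 0.4987. *Grm3* depended on the choice of mice. Without the 2 mice farthest from the median of the list, control 8.2 and MS 7.6, its r was 0.974 over 6 mice (exact permutation p = 0.0028, adjusted p = 0.0139), so the sign of r rested on these 2 mice. Without the same 2 mice, r was -0.729, 0.106 and 0.808 for *Slc1a2*, *Slc1a3* and *Glul*. *Slc17a6* had r = 0.014 with the thalamus list (rho = -0.095, exact permutation p = 0.9711 and 0.8401, adjusted p = 0.9711 and 0.9349), and 0.065 without control 8.4 and MS 7.6. A slide row holds 4 mice, too few for a correlation within it.

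**Figure D2:**
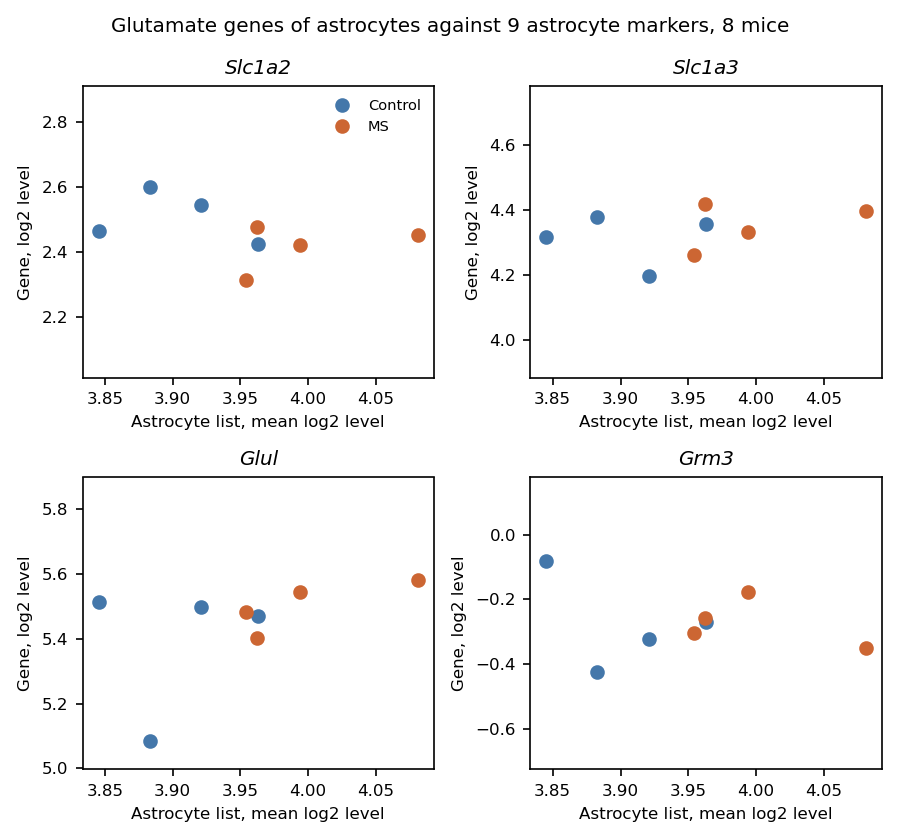
Level of *Slc1a2*, *Slc1a3*, *Glul* and *Grm3* (y axis, log2 intensity relative to the 75th percentile of the array) against the mean level of 9 astrocyte markers (x axis, same unit), 1 point per mouse, 4 control in blue and 4 MS in orange. No panel shows a line through all 8 mice, and control 8.5 lies far below the others for *Glul*.

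AMPA receptors carry fast excitatory currents. *Gria1*, the subunit of long cytoplasmic tail that moves to synapses in plasticity, was 3.08, 2.88, 2.95 and 2.92 in control mice 8.2, 8.4, 8.5 and 6.2, and 2.94, 2.97, 2.99 and 2.91 in MS mice 7.1, 7.2, 7.6 and 5.3. The MS values lay inside the range of the control mice, and the difference was -0.006 ± 0.06 (SE). *Gria2*, the edited subunit that keeps most AMPA receptors closed to calcium, was 1.05, 0.89, 0.93 and 0.81 in control mice and 0.84, 0.99, 0.97 and 1.03 in MS mice. The groups overlapped over nearly their whole range, with a difference of 0.035 ± 0.071 (SE), and a second probe gave -0.016. *Gria1* minus *Gria2* within the array had a mean of 2.035 ± 0.048 (SD, n = 4) in control and 1.995 ± 0.091 in MS mice. The exact permutation p was 0.4, and 0.6 after adjustment.

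*Gria4*, a subunit of fast channel kinetics, was 2.63, 2.69, 2.66 and 2.65 in control mice and 2.61, 2.53, 2.62 and 2.51 in MS mice. Every MS mouse was below every control mouse, and the nearest pair, MS 7.6 and control 8.2, lay close together. The difference was -0.09 ± 0.052 (SE), with an interval of -0.209 to 0.029 (limma, unadjusted p = 0.121, adjusted p = 0.989). The *Gria4* probe printed above gave -0.04 and its groups overlapped. *Gria3*, on the X chromosome, had a difference of -0.027.

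NMDA receptors need glycine or D-serine beside glutamate and admit calcium. *Grin1*, the subunit that all of them contain, was 2.53, 2.61, 2.37 and 2.53 in control mice and 2.61, 2.34, 2.36 and 2.56 in MS mice. High and low values occurred in both groups, and the difference was -0.043 ± 0.085 (SE). A dimmer second probe of *Grin1* gave -0.189 with an interval of -0.41 to 0.031. *Grin2a*, the subunit that gains weight in the mature brain, was -0.99, -1.11, -1.31 and -1.19 in control mice and -1.16, -1.09, -1.26 and -1.21 in MS mice. *Grin2b*, the subunit that dominates early in life, was 0.58, 0.50, 0.53 and 0.33 in control mice and 0.55, 0.39, 0.29 and 0.44 in MS mice. Both pairs of groups overlapped, with differences of -0.032 ± 0.079 and -0.064 ± 0.08 (SE). The second probes of *Grin2a* and *Grin2b* gave -0.123 and -0.083.

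The balance of *Grin2a* and *Grin2b* is often used to follow the maturation of NMDA receptors. Within the array, *Grin2a* minus *Grin2b* was -1.57, -1.61, -1.83 and -1.51 in control mice and -1.71, -1.48, -1.56 and -1.65 in MS mice. The means were -1.632 ± 0.14 and -1.6 ± 0.102 (SD, n = 4 each), and the exact permutation p was 0.7714 before and after adjustment. *Grin2c*, *Grin2d* and *Grin3a* had differences of -0.012, -0.069 and 0.024, and a second probe of *Grin3a* gave -0.12. Of the 6 NMDA subunits, 5 were below 0, with a median of -0.038 and none past the test, and *Grin2c* came above 0 with median scaling and in the deposited log2 table. The direction did not hold across the slide. In slide row 1, *Grin3a* alone was above 0 (0.03), and in slide row 2, *Grin2b* alone was below 0 (-0.003), with *Grin1*, *Grin2a*, *Grin2c*, *Grin2d* and *Grin3a* between 0.01 and 0.068.

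Kainate receptors modulate release and carry slow currents. Of the 5 subunits, 2 were above 0 (*Grik1*, 0.127, and *Grik3*, 0.003) and 3 below (*Grik2*, -0.072, *Grik4*, -0.07, and *Grik5*, -0.041). *Grik1* came to 0.03 without control 8.5, and its second probe gave -0.22. Among the 31 genes by their probe of highest signal, *Grik1* had the widest range over the 8 mice, 0.59, and *Grik5* the narrowest, 0.12. The second probe of *Grik3*, at chr4:125385533-125385592 (mm9, plus strand), was -4.40, -4.55, -4.63 and -4.29 in control mice and -4.80, -4.66, -5.80 and -4.94 in MS mice. All MS values were below all control values, with the lowest on the array of MS 7.6, the dimmest of the slide. Its difference was -0.582 ± 0.233 (SE), with an interval of -1.118 to -0.046 (limma, unadjusted p = 0.0367, adjusted p = 0.989). This probe was well above background on 4 control and 3 MS arrays, and the probe of highest signal of the same gene gave 0.003 with an interval of -0.188 to 0.194.

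Metabotropic receptors fall into group I (*Grm5*), which raises calcium, group II (*Grm2*, *Grm3*) and group III (*Grm4*, *Grm7*, *Grm8*), both of which curb transmitter release or cAMP. *Grm2* had the largest difference of the 31 genes, and its probe lies at chr9:106547222-106547281 (mm9, minus strand). Its level was 0.11, 0.27, -0.09 and 0.22 in control mice 8.2, 8.4, 8.5 and 6.2, and 0.26, 0.23, 0.48 and 0.41 in MS mice 7.1, 7.2, 7.6 and 5.3. MS 7.6 and MS 5.3 were above every control mouse, MS 7.1 and MS 7.2 were below control 8.4, and control 8.5 was the lowest. The difference was 0.22 ± 0.097 (SE), with an interval of -0.002 to 0.443 (limma, unadjusted p = 0.052, adjusted p = 0.989). It was 0.131 in slide row 1, 0.31 in slide row 2 and 0.147 without control 8.5.

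*Grm3*, the group II receptor of astrocytes as well as neurons, had a difference of 0.002. *Grm5* was 3.31, 3.24, 3.31 and 3.14 in control mice and 3.25, 3.12, 3.09 and 3.19 in MS mice. Its difference was -0.088 ± 0.065 (SE), and its other 2 probes gave -0.124 and -0.138. *Grm7* was 2.06, 2.11, 2.14 and 2.15 in control mice and 1.94, 2.13, 1.94 and 2.05 in MS mice. MS 7.1 and MS 7.6, both in slide row 2, were the low values. The difference of -0.102 ± 0.063 (SE) was thus 0.004 in slide row 1 and -0.208 in slide row 2. *Grm8* was 0.87, 0.79, 0.93 and 0.82 in control mice and 0.79, 1.11, 0.95 and 0.89 in MS mice. MS 7.2 was its highest value, and the difference was 0.083 ± 0.078 (SE), with 0.171 in slide row 1 and -0.006 in slide row 2. *Grm4* had a difference of -0.08.

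*Dlg4* encodes PSD-95, the scaffold that anchors NMDA receptors, and *Cacng2* encodes stargazin, which brings AMPA receptors to the membrane. *Dlg4* was 2.69, 2.45, 2.80 and 2.49 in control mice and 2.59, 2.34, 2.58 and 2.63 in MS mice, and the groups overlapped, with a difference of -0.074 ± 0.102 (SE). It was -0.009 without MS 7.2 and also -0.009 without control 8.5. *Cacng2* was 2.16, 2.12, 2.09 and 2.00 in control mice and 2.05, 1.88, 2.11 and 1.86 in MS mice. MS 7.2 and MS 5.3 were below every control mouse. The difference was -0.119 ± 0.075 (SE), at -0.273 in slide row 1, which holds these 2 mice, and 0.035 in slide row 2. *Grid1*, a delta receptor that binds cerebellins and organizes synapses, had a difference of -0.082.

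**Figure D3:**
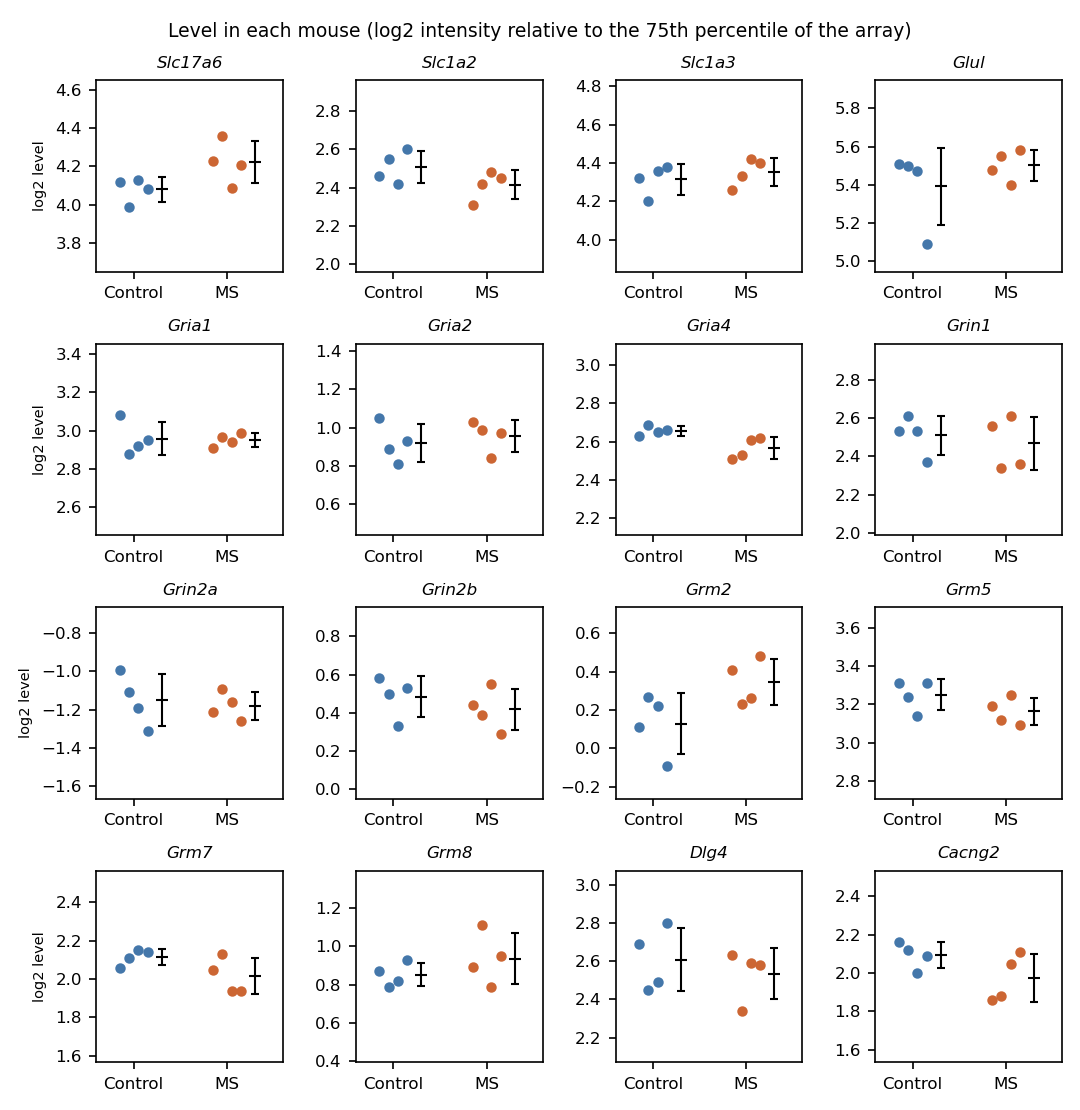
Level of 16 glutamate genes in each mouse (y axis, log2 intensity relative to the 75th percentile of the array, spanning 1 log2 unit in each panel), with 4 control mice in blue and 4 MS mice in orange. Black marks are the mean and SD of a group; the groups overlap in every panel but that of *Gria4*, and control 8.5 is the lowest point for *Glul* (5.09) and *Grm2* (-0.09).

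No mouse was high or low for the whole set. The median deviation from the mean of the gene ran from -0.053 in MS 7.6 to 0.045 in control 8.2. Control 8.2 had the highest value for 9 of the 31 genes and the lowest for none, and MS 7.6 had the lowest value for 8. Directions differed between the slide rows, which hold different mice, so that row and mouse cannot be told apart. In slide row 1, 19 of 31 genes were below 0 with a median of -0.07, and in slide row 2, 13 were below 0 with a median of 0.018. The sign turned between rows for 14 genes. It was above 0 in both rows for 8 (*Glul*, *Gria2*, *Grik1*, *Grin3a*, *Grm2*, *Slc17a6*, *Slc17a8*, *Slc1a3*) and below 0 in both for 9 (*Dlg4*, *Gria4*, *Grik2*, *Grik4*, *Grik5*, *Grin2b*, *Grm4*, *Grm5*, *Slc1a2*).

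**Figure D4:**
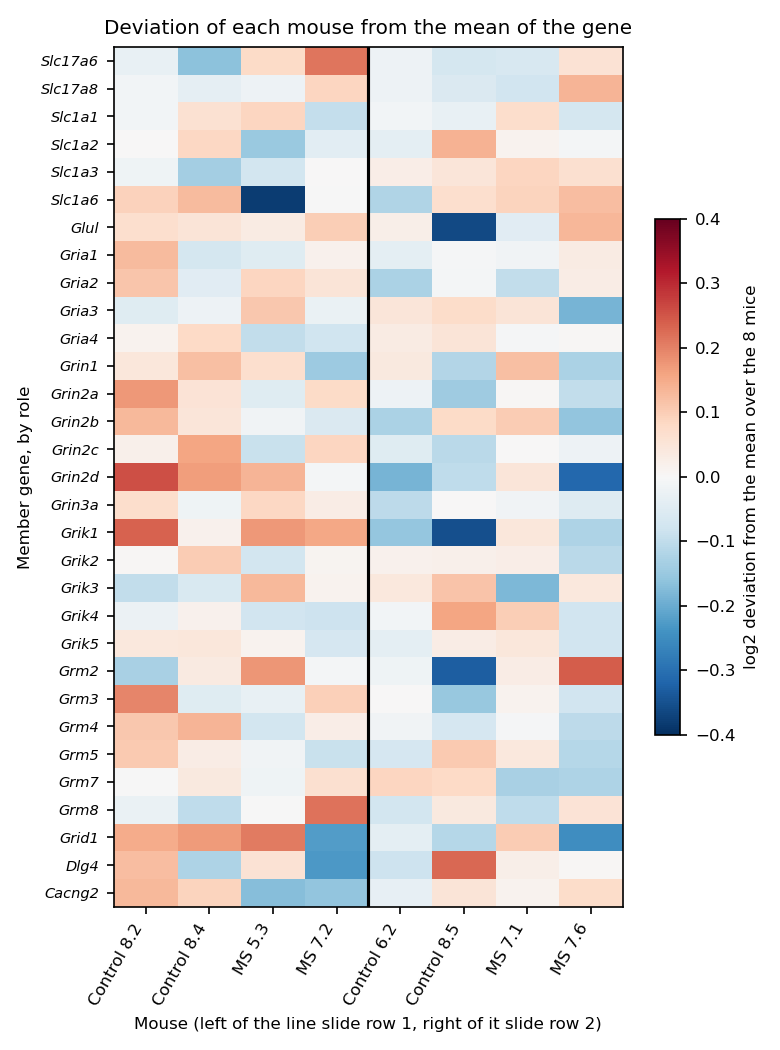
Deviation of each mouse (x axis, slide row 1 left of the line and row 2 right of it) from the mean over the 8 mice for each of the 31 genes (y axis, by role), as log2 units in color, red above and blue below the mean. The strongest single cells are *Slc1a6* in MS 5.3 and *Glul* in control 8.5, and no column is of 1 color.

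Several probes read 14 of the 31 genes. Their differences shared a sign for 8 genes, all below 0 for 7 (*Gria3*, *Gria4*, *Grin1*, *Grin2a*, *Grin2b*, *Grm4*, *Grm5*) and above 0 for *Slc17a8*. They had opposite signs for 6, *Gria2*, *Grik1*, *Grik2*, *Grik3*, *Grin3a* and *Slc1a2*. Over all tested probes of the set, 33 of 47 were below 0, and several of them read the same gene. The median over all probes tested on the array was -0.0012, and their share below 0 was not counted.

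**Figure D5:**
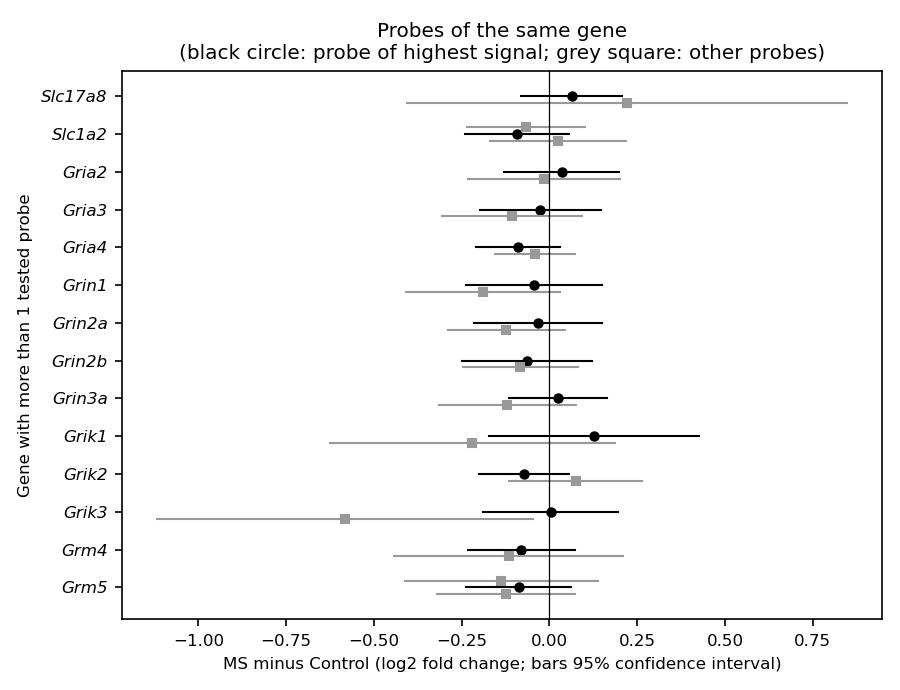
Difference between MS and control mice (x axis, log2 fold change with 95% confidence interval) for each tested probe of the 14 genes with more than 1 probe (y axis). Black circles are the probe of highest signal and grey squares the other probes; the second probe of *Grik3* (-0.582) is the only one whose bar does not reach 0.

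Beyond these genes, 52 more genes of glutamate metabolism, receptors, scaffolds and auxiliary subunits were listed, and 51 were tested. None passed limma's test, 22 were above and 29 below 0, and the median was -0.011. At an unadjusted p under 0.05 there were 2 of 51, 1 in each direction, a share near the 2.66% of all genes. *Neto2*, an auxiliary subunit of kainate receptors, was higher in MS mice by 0.176 ± 0.058 (SE, unadjusted p of limma 0.0156, adjusted p = 0.989). *Shisa7*, an auxiliary protein of synaptic receptors, differed by -0.178 ± 0.063 (unadjusted p of limma 0.0225, adjusted p = 0.989). The next in each direction were *Glud1* (glutamate dehydrogenase), at 0.128, and *Cacng7*, a relative of stargazin, at -0.216.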

How the data were processed

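The authors deposited the scanner output of 8 one-color arrays, whose processed intensity comes from Agilent Feature Extraction 10.10.1.1 per the file headers, with background subtracted and gradients corrected. RNA was labeled with Cy3 from 200 ng. A further file deposited by the authors holds log2 values of 34970 probes. The sources used here do not give its normalization, and it served as an alternative. Probe positions are those of mm9 in the files.

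From there, control spots and outlier spots were left out, spots of a probe were averaged as log2, and each array's 75th percentile was taken off. Of all probes, 37314 were well above background on 4 or more arrays and were compared with limma 3.58.1 (lmFit, eBayes, two-sided, Benjamini-Hochberg over all probes, threshold 0.05) in R 4.3.3, after a test on simulated data. Exact permutation tests used NumPy 2.4.6 over 70 assignments of mice or 40320 pairings. *Slc17a7* was not well above background, so 3 of 4 planned within-array differences and 5 of 6 planned relations were computed. The number of arrays limits the precision.

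Member genes and lists were chosen with earlier results of these data known. Members were taken by the gene name in the files. All are described; values per mouse follow a rule naming 12 genes and the 4 of smallest p in each direction, and the 2 of smallest p in each direction among the further pathway genes. The *Grik3* probe and the probes on positions were chosen after their values were seen. The NAc and mPFC arrays were not analysed here. Alternatives were quantile, median or normexp scaling, other filters, the deposited table, slide row or the first part of the mouse number as a block, each row alone, other probe rules and leaving out each mouse.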

Additional observations from a re-analysis of the deposited data

Results flagged for a closer look

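In groups of 4 mice, 62 groups of the 31 genes were examined for a mouse far from the other 3, and 2 were beyond Dixon's 95% critical value, where chance flags about 1 in 20. *Glul* in control 8.5 was 5.09, with the nearest control mouse at 5.47 and the highest at 5.51. *Grik4* in MS 7.1 was 3.09, with the other 3 MS mice at 2.91. Control 8.5 had the second lowest share of probes well above background, 62.8%, and the part of this in the *Glul* value was not tested.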

How the results depend on the processing

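No member gene passed limma's test under the 20 alternatives, with a smallest adjusted p of 0.516. This was Grm2 with the first part of the mouse number as a random block. No such number is shared by both groups, so under this block the groups were compared between the few numbers that each group holds. The reason for the lower adjusted p under this block was not tested. None of the further pathway genes passed with quantile normalization or without the filter, the 2 alternatives run for them. The median of the members stayed between -0.07 (slide row 1 alone) and 0.018 (slide row 2 alone). Over 20 alternatives, the sign held for 12 of 31 genes (Slc17a6, Slc17a8, Slc1a2, Glul, Gria4, Grin2b, Grik4, Grik5, Grm2, Grm4, Grm5, Dlg4) and turned at least once for 19, and the cause was not tested. The reversed values were as follows. In slide row 2 alone, Slc1a1 was 0.019, Slc1a6 0.132, Gria1 0.032, Grin1 0.035, Grin2a 0.036, Grin2c 0.068, Grin2d 0.01, Grik3 -0.146, Grm8 -0.006, Grid1 0.004 and Cacng2 0.035. In slide row 1 alone, Gria3 was 0.074, Grm3 -0.04 and Grm7 0.004. With median scaling, Slc1a1 and Gria1 were 0.015 and Grin2c 0.009. With normexp, Gria1 was 0.01, Grik3 -0.011 and Grm3 -0.001. In the deposited table, Slc1a3 was -0.01, Grin2c 0.013 and Grik3 -0.057. Grik3 was -0.015 with quantile normalization and -0.006 with the first part of the mouse number as a random block. With the mean of all tested probes of a gene, Grin3a was -0.048, Grik1 -0.046, Grik2 0.029, Grik3 -0.289 and the difference Grin2a minus Grin2b -0.004. The correlation of Glul with the astrocyte list was -0.004 in the deposited table, that of Grm3 was 0.974 without the 2 farthest mice, and that of Slc17a6 with the thalamus list was -0.167 with quantile normalization, -0.276 with normexp and -0.184 in the deposited table.

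When each mouse was left out in turn, values ranged from -0.03 to 0.035 for Gria1, -0.085 to 0.021 for Grin2a, -0.143 to 0.024 for Grin2d, -0.04 to 0.064 for Grik3, -0.139 to 0.028 for Slc1a6, -0.05 to 0.039 for Grin2c, -0.035 to 0.026 for Slc1a1, -0.048 to 0.066 for Grm3, -0.002 to 0.077 for Gria2, -0.007 to 0.052 for Grin3a, -0.067 to 0.031 for Gria3, -0.127 to -0.009 for Dlg4, 0.03 to 0.227 for Grik1, 0.008 to 0.151 for Glul, -0.164 to -0.013 for Grid1, -0.09 to -0.002 for Grin1, -0.175 to -0.081 for Slc1a2 minus Slc1a3, and -0.035 to 0.072 for Grin2a minus Grin2b. No paired analysis was possible because the groups share no mouse number. Probes near background, such as those of Slc17a7 and the second probe of Grik3, limit what can be measured.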
